A study of Mus musculus with 8 samples.

Results

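Metallothioneins, the metal-responsive transcription factor gene Mtf1 and genes of zinc transport were followed in J774A.1 cells, a mouse macrophage line. The group holds 10 genes, Mt1, Mt2, Mtf1, Slc30a1, Slc30a5, Slc30a7, Slc39a6, Slc39a8, Slc39a10 and Slc39a14, out of 55487 genes listed. They were selected by name with their difference between the treatments already known, so their values, and the thresholds they fall past, are given as a description, with no p, and support nothing. The study asked what the bile acid ursodeoxycholic acid (UDCA) does to inflammatory macrophages. RNA was sequenced from 4 libraries of cells given lipopolysaccharide (LPS, a bacterial cell wall component, 1 μg/mL) and from 4 libraries of cells given LPS (1 μg/mL) together with UDCA (1 mM), each for 24 h. Both groups carried LPS, and cells without LPS were not analysed here, so every difference below is one between LPS + UDCA and LPS. All libraries came from a single cell line, and no source used here says whether the 4 libraries of a group were separate cultures, so the spread between them may be technical.

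Metallothioneins are small cysteine-rich proteins that bind zinc and copper and release zinc on oxidation. Their genes are switched on by MTF1, a zinc-finger protein that senses free zinc and binds short DNA motifs called metal response elements. Transporters of the SLC30 family (ZnT) mostly move zinc out of the cytosol, across the cell membrane or into organelles. Those of the SLC39 family (ZIP) move it into the cytosol. Exporter and importer are used here as names of these families, and transport was not measured. Activated macrophages are known to shift zinc between these compartments and to withhold metals from microbes.

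Levels are in TPM, a share of all transcripts corrected for gene length, so levels of different genes can be compared within a library. TPM keeps no record of read number, so the depth of the libraries is unknown. Summed TPM was 973190 to 977485 in the LPS libraries and 958918 to 962737 in the LPS + UDCA libraries, and 0 pairs of libraries were identical. All 8 macrophage markers looked at were detected in every library, at 15.25 TPM or more, and their summed level was 4204 to 4434 TPM with LPS alone and 1980 to 2217 TPM with LPS + UDCA. Cd68, Csf1r, Itgam and Lyz2 were lower and Adgre1 higher past the thresholds given below, and the part of this shift in the zinc genes was not tested. None of 18 markers of fibroblasts, epithelium, lymphocytes, endothelium and neutrophils exceeded 0.95 TPM in any library, and 8 of them were at 0 throughout. In bulk RNA, fewer cells that express a gene and less of its RNA per cell cannot be told apart.

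Of the 10 genes, 9 had a mean of at least 1 TPM and entered the fit across 11796 genes, while Slc39a8 was below it. A gene counted as called when its fold change reached 2 and its false discovery rate (FDR) was under 0.05. The fold change for calls was taken on the scale of log2(TPM + 1), so a ratio of mean TPM above 2 can fall short of it. Called higher with LPS + UDCA were 3 of the 9, Mt1, Mt2 and Slc30a1, beside 8.71% of all genes tested. Slc39a10 alone, 1 of the 9, was called lower, beside 8.44% of all genes. Without the fold minimum, 5 of the 9 were past the FDR as higher and 2 as lower, beside 40.2% and 32.3% of all genes. The TPM ranges of LPS and LPS + UDCA were apart in 7 of the 9, beside 66.8% of all genes. The genes were chosen on this contrast, so nothing is read from these shares. Slc30a1 reached a mean of 1 TPM only through the LPS + UDCA libraries, so it had to differ in order to be fitted at all. The median log2 difference was 0.34 over the 9 and 0.082 over all genes tested.

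**Figure D1:**
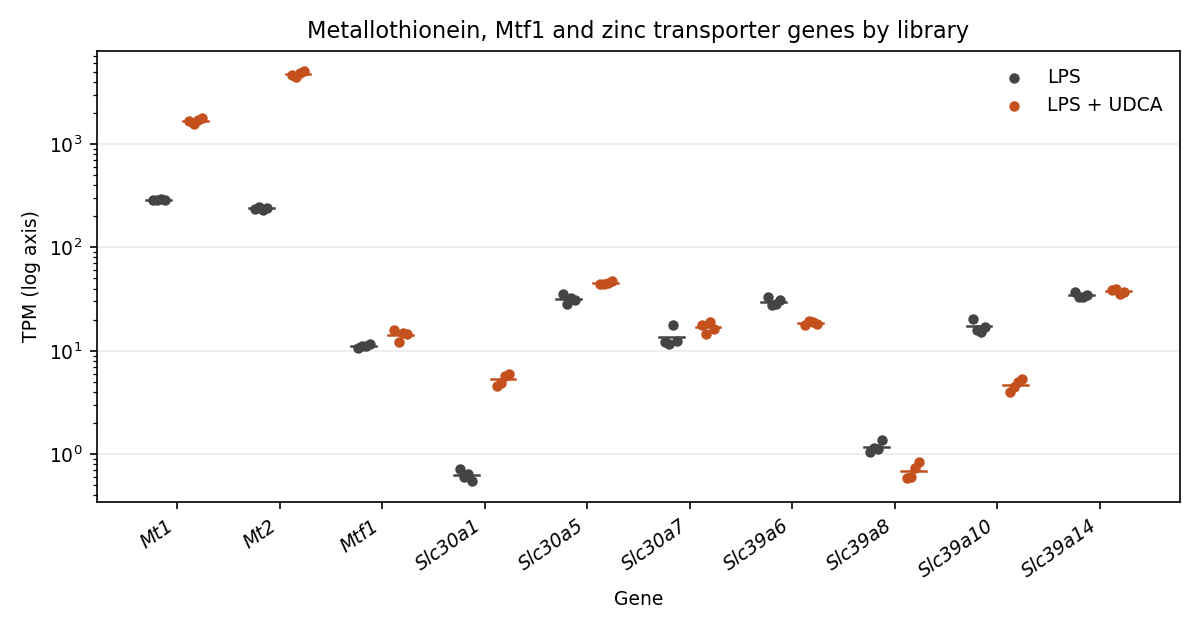
TPM of the 10 genes in each library on a log axis, with LPS libraries in grey, LPS + UDCA libraries in orange and short bars at the means (n = 4 per group). Mt1, Mt2 and Slc30a1 stand well above their LPS values, Slc39a10 stands below, and the points of Slc30a7 and Slc39a14 overlap between the groups.

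Mt2 and Mt1, the pair of metallothioneins expressed in most tissues, were both several-fold higher with LPS + UDCA, and Mt2 moved from below Mt1 to above it. Mt2 (ENSMUSG00000031762, chr8:94172664-94173568 on GRCm38, plus strand) measured 237, 248, 229.84 and 240.14 TPM in LPS libraries 1 to 4. With LPS + UDCA it measured 4667, 4482.5, 4887 and 5042 TPM in libraries 1 to 4. The lowest LPS + UDCA library was at 4482.5 TPM and no LPS library exceeded 248 TPM.

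The means of Mt2 were 239 ± 7.53 TPM with LPS alone and 4770 ± 245 TPM with LPS + UDCA (SD, n = 4), a ratio of 19.97. On the scale of log2(TPM + 1) the difference was 4.31 ± 0.041 (SE), and 1 of the genes tested had a larger one. Ordered by mean TPM among all listed genes, Mt2 was at place 557 with LPS and at place 14 with LPS + UDCA. Mt2 overlaps the antisense gene Gm45774, and 58.1% of its 31-base words occur in another gene on either strand against 0.524% on its own strand. No source used here says whether reads were counted by strand, and without strand the reads of these 2 genes cannot be told apart. Gm45774 itself was at 0.83 ± 0.150 TPM with LPS alone and 2.03 ± 0.428 TPM with LPS + UDCA, far below Mt2.

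Mt1 (ENSMUSG00000031765, chr8:94179082-94180327, plus strand) starts after an interval of 5513 bases from the end of Mt2. It measured 284, 287, 290.5 and 289 TPM in the LPS libraries, and 1672, 1569, 1695 and 1764 TPM in the LPS + UDCA libraries. The LPS libraries lay within a few TPM of each other, far from all LPS + UDCA libraries. The means were 288 ± 2.71 and 1675 ± 80.7 TPM, a ratio of 5.82, with a log2 difference of 2.54 ± 0.036 (SE), and 34 genes tested had a larger one. No 31-base word of Mt1 was shared with another gene (0%).

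The balance of the pair differed between the treatments. The ratio of Mt2 to Mt1 in TPM was 0.791 to 0.864 in the LPS libraries, with a mean of 0.830, and 2.79 to 2.88 in the LPS + UDCA libraries, with a mean of 2.85. Together the pair held 0.0535% to 0.0548% of the summed TPM with LPS alone and 0.629% to 0.710% with LPS + UDCA. Of the other metallothionein genes at the same locus, Mt4 was listed at 0 in all 8 libraries. Mt3, known mainly from brain, was at 0 in every LPS library, while the LPS + UDCA libraries held 0, 0.47, 0 and 0.23 TPM.

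**Figure D2:**
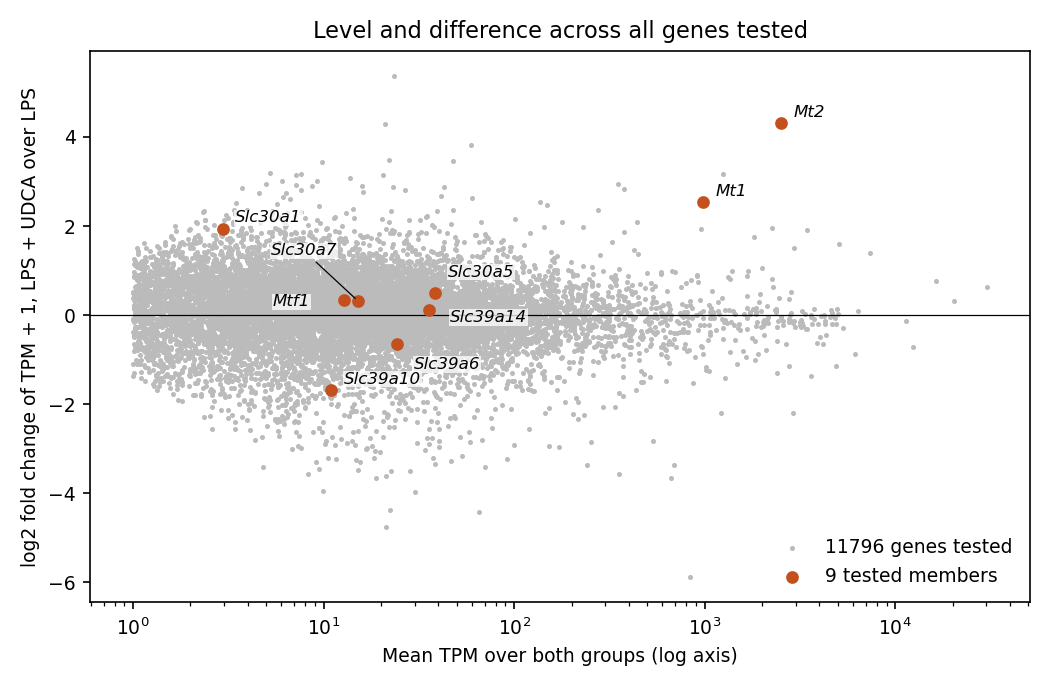
Each grey point is a gene tested (11796), by its mean TPM over both groups on a log axis and its log2 difference between LPS + UDCA and LPS, and orange points are the 9 tested zinc genes. Mt2 and Mt1 combine a high level with a large difference, and Slc30a1 sits at the low end of the levels.

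The bases before the start sites of Mt1, Mt2 and Slc30a1 are shown because these are the genes called higher, and because metallothionein genes are the textbook bearers of metal response elements. The letters searched were the metal response element (MRE) core, TGCACNC or TGCGCNC, on either strand, with matches in capitals. A match on the opposite strand appears as its reverse complement. Sequences are the 250 bases before the RefSeq start on GRCm38.p6, plus strand, 5′ to 3′, at chr8:94178839-94179088 for Mt1, chr8:94172368-94172617 for Mt2 and chr1:191906531-191906780 for Slc30a1.
Mt1: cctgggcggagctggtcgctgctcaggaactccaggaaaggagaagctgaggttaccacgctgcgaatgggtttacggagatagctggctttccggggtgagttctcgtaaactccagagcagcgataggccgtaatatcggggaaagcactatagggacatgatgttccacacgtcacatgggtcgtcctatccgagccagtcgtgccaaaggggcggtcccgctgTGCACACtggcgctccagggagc
Mt2: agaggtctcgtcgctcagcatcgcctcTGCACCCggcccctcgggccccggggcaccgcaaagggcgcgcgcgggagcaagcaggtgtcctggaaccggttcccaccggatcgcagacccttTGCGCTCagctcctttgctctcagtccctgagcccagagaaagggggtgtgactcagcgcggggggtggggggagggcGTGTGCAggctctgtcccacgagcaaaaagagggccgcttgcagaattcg
Slc30a1: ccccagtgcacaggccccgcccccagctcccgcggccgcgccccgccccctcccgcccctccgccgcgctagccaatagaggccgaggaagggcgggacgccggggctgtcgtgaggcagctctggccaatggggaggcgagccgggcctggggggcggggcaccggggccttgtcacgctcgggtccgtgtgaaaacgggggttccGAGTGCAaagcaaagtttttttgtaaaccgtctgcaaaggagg

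Counted from 250 bases before to 50 after the RefSeq start, Mt2 had 4 matches, Mt1 had 3 and Slc30a1 had 2. Of 32851 promoters of that length in the same table, 25.7% had at least 1 match, 7.11% at least 2, 1.97% at least 3 and 0.517% at least 4. Those of Mt1 begin at -23, 3 and 21 from the start, and those of Mt2 at -223, -128, -50 and 5. Those of Slc30a1 begin at -43 and 31. These RefSeq starts differ from the GENCODE gene starts given with each gene. The 250 bases printed end at 94179088 for Mt1 and 191906780 for Slc30a1, past the gene starts at 94179082 and 191906767. For Mt2 they end at 94172617, before the gene start at 94172664. Slc30a5 had 1 match and Slc39a8 had 1 in one of its windows, while none was found in the windows of Mtf1, Slc30a7 and Slc39a10. In all, 8 of the 10 genes matched an entry, and Slc39a6 and Slc39a14 did not. The antioxidant response element (ARE) core, TGACNNNGC, the motif bound by NRF2, occurred on either strand in 12.4% of promoters. It was found 1 time each in Mt2, Slc30a1, Slc30a5 and Slc39a8, at -79 in Mt2 and at -82 in Slc30a1. No match of the MRE core overlapped one of the ARE core in these windows. At least 1 match to the MRE core was found in 5 of the 8 genes, and in 10 of 17 other family genes with an entry. Of those 17, Slc30a4 and Slc30a10 each had 3 matches and Slc30a2 had 2, so several matches were not particular to the genes called higher. Slc30a4 had a log2 difference of 0.33, Slc30a10 was at 0 TPM in every library, and Slc30a2 was lower with LPS + UDCA.

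**Figure D3:**
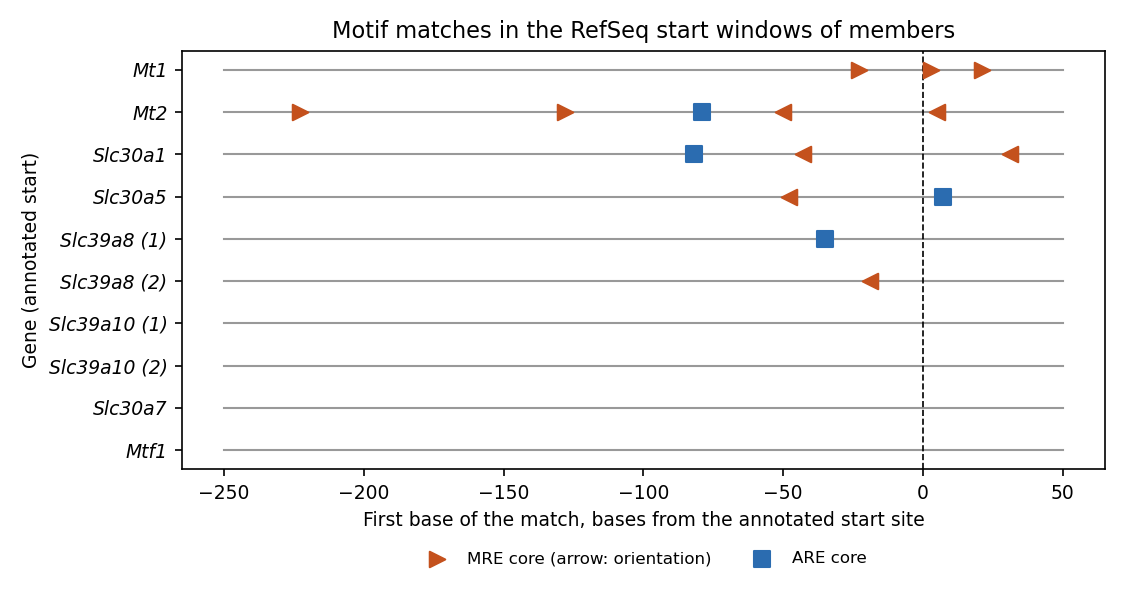
Matches to the MRE core (orange, arrow giving the strand) and the ARE core (blue) along the RefSeq start windows of the 8 genes with an entry, in bases from the start site, with a line for each window. Mt2 has 4 MRE matches, Mt1 has 3, Slc30a1 has 2, and the lower 4 lines have none of either motif.

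Across the 8801 genes tested that had a RefSeq window, the share called higher varied little with the number of matches to the MRE core. It was 8.31% of genes with no match, 7.98% with 1, 8.59% with 2 and 8.26% of the 327 genes with 3 or more, beside 8.25% of all 8801. Leaving out Mt1 and Mt2, it was 7.69% of the 325 genes with 3 or more. The share called lower was 8.84% with no match, 8.45% with 1, 7.995% with 2 and 5.81% with 3 or more, beside 8.54% of all 8801, and the median log2 difference was 0.062, 0.080, 0.11 and 0.10 in that order. These values describe these letters in these windows and were not tested.

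Mtf1 (ENSMUSG00000028890, chr4:124802104-124849800), which encodes the zinc sensor itself, was modestly higher with LPS + UDCA. It measured 10.75, 11.02, 11.03 and 11.61 TPM with LPS alone and 15.92, 12.08, 14.79 and 14.6 TPM with LPS + UDCA. All LPS libraries were below all LPS + UDCA libraries, with library 2 of the latter close to the LPS values. The means were 11.1 ± 0.362 and 14.3 ± 1.62 TPM, a ratio of 1.29 and a log2 difference of 0.34 ± 0.082 (SE).

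Among the exporters, Slc30a1 stood apart. It encodes ZnT1, the exporter of the cell membrane and a classical MTF1 target (ENSMUSG00000037434, chr1:191906767-191913247). It measured 0.72, 0.6, 0.65 and 0.55 TPM with LPS alone and 4.56, 4.92, 5.68 and 5.96 TPM with LPS + UDCA. Every LPS value was below 1 TPM and every LPS + UDCA value above 4 TPM.

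The means of Slc30a1 were 0.63 ± 0.0726 and 5.28 ± 0.651 TPM, a ratio of 8.38. Its log2 difference was 1.94 ± 0.11 (SE), and 2.88 with 0.1 in place of 1 added to the TPM, since the scale of log2(TPM + 1) understates low genes. Slc30a1 overlaps the antisense gene 1700034H15Rik, and 8.38% of its 31-base words occur in another gene on either strand.

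Slc30a5 and Slc30a7 encode ZnT5 and ZnT7, which load zinc into the early secretory pathway. Slc30a5 (ENSMUSG00000021629, chr13:100802648-100833427) measured 35.71, 28.3, 32.06 and 31.25 TPM with LPS alone and 43.79, 43.87, 45.39 and 47.27 TPM with LPS + UDCA. The groups were apart, with a ratio of means of 1.42 and a log2 difference of 0.49 ± 0.068 (SE). Slc30a7 (ENSMUSG00000054414, chr3:115938973-116007406) measured 12.28, 11.51, 17.7 and 12.56 TPM with LPS alone and 17.85, 14.39, 18.85 and 16.38 TPM with LPS + UDCA. Its groups overlapped through LPS library 3, and the log2 difference was 0.31 ± 0.13 (SE). Of its 31-base words, 15.9% occur in another gene on either strand, against 0.0719% on its own strand.

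Among the importers, Slc39a10 differed most from LPS in the downward direction. It encodes ZIP10, an importer of the cell membrane, and the gene is known to be restrained by MTF1 (ENSMUSG00000025986, chr1:46807544-46892852). It measured 20.48, 15.98, 15.35 and 16.98 TPM with LPS alone and 3.98, 4.46, 4.94 and 5.33 TPM with LPS + UDCA. No LPS + UDCA library came within 10 TPM of any LPS library.

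The means of Slc39a10 were 17.2 ± 2.29 and 4.68 ± 0.586 TPM, so the level with LPS was 3.68 times that with LPS + UDCA, and the log2 difference was -1.68 ± 0.11 (SE). Set against the exporter of the same membrane, Slc39a10 was 23.6 to 30.9 times the TPM of Slc30a1 in the LPS libraries, with a mean of 27.4. In the LPS + UDCA libraries it was 0.870 to 0.907 times that of Slc30a1, with a mean of 0.886, so the order of the pair was the opposite in every library. The pair was set side by side after its differences were seen, and Slc30a1 was at only 0.55 to 0.72 TPM with LPS alone. The ratio describes this pair and not the families. The importer genes Slc39a1 (83.8 and 70.7 TPM with LPS and LPS + UDCA) and Slc39a14 (34.4 and 37.4 TPM) stood above Slc39a10 in both groups.

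Slc39a6 encodes ZIP6, a close relative of ZIP10 (ENSMUSG00000024270, chr18:24579881-24603817). It measured 32.9, 27.54, 28.13 and 30.65 TPM with LPS alone and 17.66, 19.62, 19.12 and 18.18 TPM with LPS + UDCA. Its groups were apart, the level with LPS was 1.60 times that with LPS + UDCA, and the log2 difference was -0.65 ± 0.066 (SE). Slc39a8 encodes ZIP8, an importer of zinc and manganese that is known to respond to inflammatory signals (ENSMUSG00000053897, chr3:135825279-135888572). It measured 1.04, 1.15, 1.12 and 1.37 TPM with LPS alone and 0.59, 0.6, 0.74 and 0.84 TPM with LPS + UDCA. All LPS libraries were the higher ones, at a level near the limit of the filter, and a fit without the filter gave a log2 difference of -0.36 ± 0.087 (SE).

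Slc39a14 encodes ZIP14, which carries zinc, iron and manganese and is known to rise in the acute phase response (ENSMUSG00000022094, chr14:70303469-70351425). It measured 36.64, 33.15, 32.83 and 34.88 TPM with LPS alone and 38.86, 39.26, 35.01 and 36.63 TPM with LPS + UDCA. The ranges overlapped, and the log2 difference of 0.12 ± 0.055 (SE) was 0.01 under median-of-ratios scaling.

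An order by mean TPM was made over 22 genes, those of the families that were tested together with Mtf1 and Slc39a8. Mt1 stood first in the LPS libraries, followed by Mt2, Slc39a7, Slc39a1 and Slc39a14, and Slc30a1 stood last. The libraries of Slc39a14, Slc30a5 and Slc39a6 overlapped in range there, as did those from Slc39a13 down to Mtf1, each with the next. With LPS + UDCA, Mt2 stood first and Mt1 second, followed again by Slc39a7 and Slc39a1, and then by Slc30a5 and Slc39a14, whose ranges did not overlap. Slc30a1 was at place 17 of 22 there, overlapping Slc39a10 at place 18, and Slc39a8 stood last of the 22, at 0.693 TPM. Slc30a2, also under the filter, was not placed, and its mean with LPS + UDCA was lower, at 0.590 TPM.

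The remaining family genes are those left after the 10 had been selected with their differences known, so their counts were shaped by that selection. Nothing is read from those counts. The genes were tested with limma, with Benjamini-Hochberg adjustment over all genes tested. Of 19 such genes, 12 were tested and 0 passed both thresholds, beside 8.71% higher and 8.44% lower over all genes. An unadjusted p under 0.05 was reached by 10 of the 12, beside 8796 of all 11796 genes tested. By FDR alone, 6 rose, 3 fell and 3 did not pass, beside 40.2% higher and 32.3% lower over all genes, with a median log2 difference of 0.18, beside 0.082 over all genes. All 3 tested SLC30 genes outside the selection rose by FDR alone. Their log2 differences were 0.27 for Slc30a6, 0.33 for Slc30a4 and 0.34 for Slc30a9 (limma adjusted p = 0.000864 for Slc30a9). Slc30a6 did not pass under median-of-ratios scaling (adjusted p = 0.0885) or quantile normalization (adjusted p = 0.0527), nor Slc30a4 without LPS library 3 (adjusted p = 0.0514) or LPS + UDCA library 4 (adjusted p = 0.0537). Slc30a2, an exporter just under the filter, went the other way, from 1.07 ± 0.107 TPM with LPS alone to 0.590 ± 0.147 TPM with LPS + UDCA. Its groups were apart, and the fit without the filter gave a log2 difference of -0.38 (limma adjusted p = 0.00973).

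Importers went both ways. Of the 9 tested outside the selection, 3 rose, 3 fell and 3 did not pass by FDR alone. Slc39a2 had the highest log2 difference, 0.95 (limma adjusted p = 8.95e-05), from 1.63 ± 0.300 to 4.07 ± 0.552 TPM, a ratio of means of 2.49. Slc39a13, which encodes a ZIP protein of the secretory pathway, had the lowest, -0.89 ± 0.077 (SE, limma adjusted p = 6.1e-06), from 17.8 ± 0.903 to 9.16 ± 0.908 TPM. Slc39a7, an importer from the endoplasmic reticulum and the highest of the family in TPM, fell by 0.18 on the log2 scale (limma adjusted p = 0.0472), but did not pass the FDR in 7 of 14 alternative settings (limma adjusted p up to 0.129), among them leaving out LPS library 1, 2 or 4 or LPS + UDCA library 3 or 4.

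**Figure D4:**
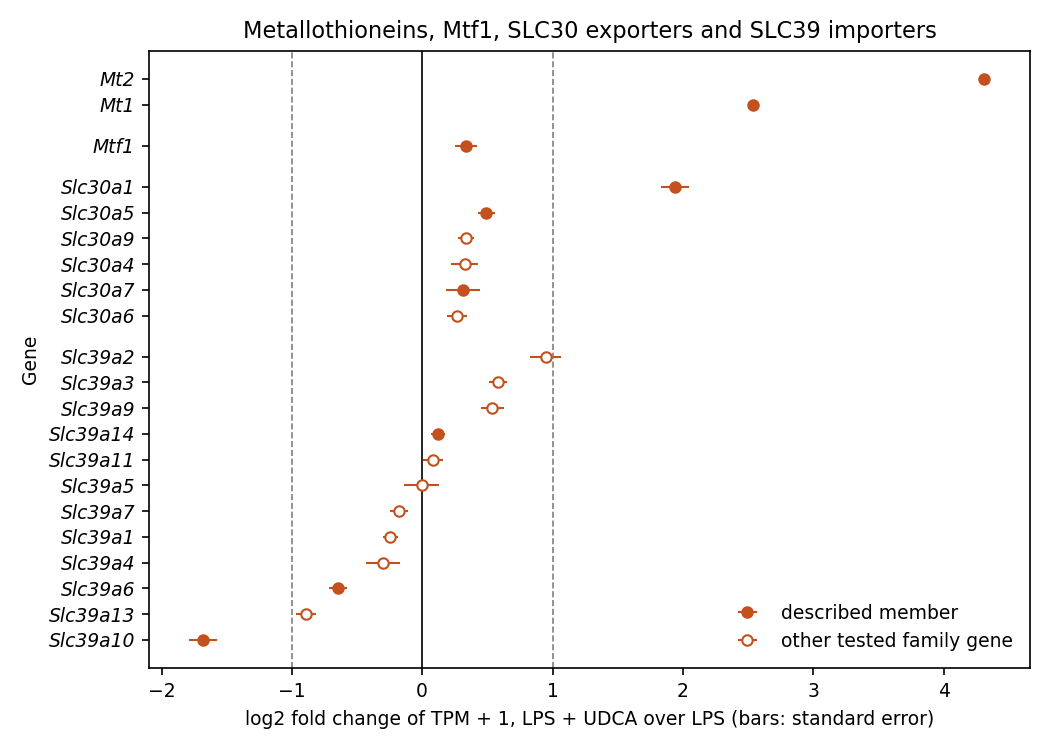
Log2 difference of TPM + 1 between LPS + UDCA and LPS for the tested metallothioneins, Mtf1, exporters and importers, with standard errors as bars, dashed lines at a fold of 2, filled points for the selected genes and open points for the others. The tested exporters all lie right of 0, importers lie on both sides, and no open point is past the dashed lines.

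Genes described elsewhere as depending on MTF1 formed a list of 7, of which 6 were tested. Gclc, the catalytic subunit of the enzyme that limits glutathione synthesis, rose from 13.97 ± 0.918 to 34.97 ± 2.67 TPM (log2 difference 1.26 ± 0.069, SE, limma adjusted p = 3.43e-07). Slc40a1, the iron exporter ferroportin, rose from 4.59 ± 0.337 to 11.7 ± 1.05 TPM (1.19 ± 0.082, limma adjusted p = 1.48e-06). Selenoh, a selenoprotein with a redox role, fell from 68.4 ± 5.48 to 19.6 ± 1.25 TPM (-1.75 ± 0.069, limma adjusted p = 5.2e-08). So 2 rose and 1 fell past both thresholds, and 4 rose and 2 fell by FDR alone, with a median of 0.63. Over all genes tested 8.71% were higher and 8.44% lower past both thresholds, and 40.2% and 32.3% by FDR alone.

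Of 7 other genes of zinc handling in the table, 5 were tested. Of these, 0 rose and 2 fell past both thresholds, beside 8.71% and 8.44% of all genes. The pair that fell encodes calprotectin, a secreted protein that withholds zinc and manganese from microbes. S100a8 went from 19.2 ± 1.60 to 4.52 ± 3.04 TPM (log2 difference -2.0 ± 0.29, limma adjusted p = 0.000179). S100a9 went from 2.17 ± 1.42 to 0.240 ± 0.205 TPM (-1.27 ± 0.28). The log2 difference of S100a9 was -2.81 with a pseudocount of 0.1 and -1.003 without LPS library 3, next to the fold minimum. S100a9 reached a mean of 1 TPM only through the LPS libraries, so its entry into the fit depended on its being high there. No p is given for it, and its place among the 2 that fell is not read as a result. Trpm7, a divalent cation channel, had the highest difference of the list, 0.66 (limma adjusted p = 0.000648).

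Copper handling was looked at because metallothioneins also bind copper. Of 9 genes tested, 0 passed both thresholds in limma, beside 8.71% higher and 8.44% lower over all genes. By FDR alone 2 rose and 4 fell, beside 40.2% and 32.3% over all genes. An unadjusted p under 0.05 was reached by 6 of the 9, beside 8796 of all 11796 genes tested. The highest was the copper-exporting ATPase gene Atp7a, with a log2 difference of 0.55 (limma adjusted p = 0.0155). The lowest was the copper transporter gene Slc31a2, which fell by 0.55 on the log2 scale (limma adjusted p = 4.9e-05).

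The neighbourhood of Mt1 and Mt2 held 17 other annotated genes within 200 kb, of which 6 were tested. In limma 0 passed both thresholds, beside 8.71% higher and 8.44% lower over all genes. By FDR alone 3 rose and 2 fell, beside 40.2% and 32.3% over all genes, so nothing is read from these counts. The 3 that rose include the antisense gene Gm45774, which overlaps Mt2 and had a log2 difference of 0.72. Its mean was 0.83 TPM with LPS alone and 2.025 TPM with LPS + UDCA. It reached a mean of 1 TPM only through the LPS + UDCA libraries, so it had to differ in order to be fitted. Whether reads were counted by strand is unknown, so its reads cannot be told apart from those of Mt2. Its difference is therefore not a separate result of the neighbourhood, and no p is given.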

How the data were processed

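The authors deposited TPM per gene for 8 libraries, 4 with LPS and 4 with LPS + UDCA, grouped here by the sample labels. The libraries were made with an Illumina TruSeq kit. The submitters' processing notes name Bowtie 0.12.2 and the mm10 and GRCm38 builds, and the counting program is not given in the sources used here. The 11796 genes whose TPM averaged 1 or more over the libraries were fitted as log2(TPM + 1) in limma 3.58.1 (R 4.3.3) with a mean-variance trend and Benjamini-Hochberg adjustment. A call needed a 2-fold change and an FDR under 0.05, the study's thresholds. The fold was taken on log2(TPM + 1), which is stricter for low genes. The study reported more genes in each direction than were called here, so the shares over all genes are not those of the study. P-values measure the spread between these samples, and no error from read depth could be computed. The genes, lists and tests were chosen with earlier results of these data known. All 10 genes are named, and of each other list or the 200 kb neighbourhood, the genes past both thresholds, with the highest and lowest of each list. The values named beyond that were chosen after they were seen. Positions are from GENCODE M21 on GRCm38, and promoters from RefSeq on GRCm38.p6. One neighbouring gene is not reported here by name. The procedure was tested on simulated data. Python 3.11.15, pandas 2.3.3 and matplotlib 3.10.9 made tables and figures. Alternatives covered scaling, pseudocount, filter, thresholds, replicate block and leaving out each library.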

Additional observations from a re-analysis of the deposited data

Results flagged for a closer look

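In 3 of 84 groups of 4 libraries examined, 1 library stood apart from the other 3 by a gap above the critical value of Dixon's test, where chance gives about 1 in 20, or 4.2. Slc30a7 was highest in LPS library 3, at 17.7 TPM against 12.56 TPM in the next (gap over range 0.830). S100a8 was highest in LPS + UDCA library 2, at 9.03 TPM against 3.48 TPM in the next (0.846). Sco2, a copper chaperone of mitochondria, was highest in LPS library 2, at 24.97 TPM against 21.14 TPM in the next (0.849).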

How the results depend on the processing

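Over all genes tested, 1028 were called higher and 995 lower. The counts moved by over 1.5 times with a mean of at least 10 TPM, which fitted 7072 genes (467 higher, 545 lower), and with no fold minimum (4741 and 3807, and 9 family genes outside the selection). A pseudocount of 0.1 gave 1444 and 1232 and called Slc39a2 (log2 difference 1.27), the 1 family gene outside the selection so called. Leaving out a library gave 959 to 1122 higher and 972 to 1033 lower, and 0 to 1 family genes outside the selection. That 1 was Slc39a2, at 1.02 without LPS library 1 and 1.00 without LPS + UDCA library 1. Median-of-ratios scaling gave 810 higher and 1167 lower, so the higher share was 41.0% against 50.8%. Signs reversed for Slc39a11 and Sco2 under that scaling (-0.019 and -0.015, against 0.084 and 0.089), and for Slc39a5 (-0.0039) on leaving out libraries (range -0.080 to 0.072). The replicate block gave 1034 higher and 1000 lower, with 2020 genes called in both fits. Same-numbered libraries had correlations of deviations from -0.035 to 0.15 (3 of 4 pairs over 0.1), against -0.14 to 0.16 for different numbers (1 of 12 over 0.1), and 5 of 8 libraries correlated best with their own number. This is a hint of pairing from the data, but the numbers were not taken as pairs because the rule needed every pair over 0.1. Of the alternative values for the 10 genes, 117 moved by less than the spread between replicates, 8 by more, and 0 changed sign. Low genes such as Slc30a1 and Slc39a8 are limited by an unknown depth.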
